A study of Mus musculus with 2 samples.

Results

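In a sort of tumor endothelial cells, 56 of 4993 cell barcodes had more UMIs of a panel of pericyte and connective-tissue genes than of endothelial or other panels. They were chosen by their own counts: a barcode needed at least 200 genes, under 20% mitochondrial UMIs (unique molecular identifiers, 1 per captured RNA molecule), and at least 5 UMIs of a stromal panel (Rgs5, Acta2, Col1a1 and Col3a1) that exceeded its UMIs of each of 4 other panels. Those panels mark lymphatic endothelium (Ccl21a, Prox1, Lyve1, Flt4, Mmrn1), blood endothelium (Flt1, Plvap, Emcn, Gpihbp1, Cd34), melanoma (Dct, Pmel, Mlana, Tyrp1) and phagocytes (C1qa, C1qb, Tyrobp, Lyz2). Because these counts chose the barcodes, their levels and every contrast drawn from the same barcodes are descriptions, with no test. Within the 56, barcodes with more Rgs5 and Acta2 than Col1a1 and Col3a1 UMIs are called mural-like, and those with the reverse collagen-led.

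The cells came from skin tumors grown for 15 days after intradermal injection of B16F10-OVALBUMIN/VEGFC, a mouse melanoma line carrying the model antigen ovalbumin and the lymphatic growth factor VEGF-C. The host mice were Ifngr1iProx1, which carry a Cre recombinase (Cre plus), or Ifngr1WT, which do not (Cre minus); the name ties the Cre to Prox1, the transcription factor of lymphatic endothelium, and Ifngr1 encodes the ligand-binding chain of the interferon-gamma receptor. In each genotype 3 tumors were pooled, digested with collagenase IV and DNase, sorted as DAPI-negative, CD31-positive and CD45-negative, and made into 1 droplet library that counts the 3′ ends of transcripts. Genotype, pool, sort and library therefore cannot be told apart, no test between genotypes was possible, and every interval in brackets is a 95% interval that covers counting error only. The age and sex of the mice, the agent and time of any Cre induction and the deleted part of Ifngr1 are not given in the sources used here.

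Mural cells wrap the outside of small blood vessels. Pericytes sit inside the basement membrane of capillaries, depend on PDGF-B from the endothelium acting on their receptor Pdgfrb, and commonly carry the G-protein regulator Rgs5, while smooth muscle cells of larger vessels hold more contractile protein, among them the actin Acta2. Fibroblasts lie further out in the tissue, make fibrillar collagens, and are usually recognised by Pdgfra, Dcn and Lum; tumor vessels are known for loosely attached pericytes, and cells between these types share many genes.

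The results turn on the balance between Acta2 and Rgs5 in mural-like barcodes, so the promoters of these genes are shown, from RefSeq on GRCm38.p6, each covering 250 bases before and 50 after the annotated start and written 5′ to 3′ on the gene's strand. Contractile genes are known targets of serum response factor, which binds the CArG box, CC and GG separated by 6 bases that are A or T. Capitals mark CArG-like matches in which 1 of the middle bases is C or G, a looser form that was added after the sequences had been seen. The Acta2 promoter lies at chr19:34255324-34255623 on the minus strand and the Rgs5 promoter at chr1:169655251-169655550 on the plus strand.
Acta2: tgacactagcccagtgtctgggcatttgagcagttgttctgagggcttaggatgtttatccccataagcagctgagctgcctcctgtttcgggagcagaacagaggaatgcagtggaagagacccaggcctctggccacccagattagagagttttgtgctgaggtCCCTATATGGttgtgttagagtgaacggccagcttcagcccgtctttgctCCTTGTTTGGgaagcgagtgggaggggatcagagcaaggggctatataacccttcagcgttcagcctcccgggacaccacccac
Rgs5: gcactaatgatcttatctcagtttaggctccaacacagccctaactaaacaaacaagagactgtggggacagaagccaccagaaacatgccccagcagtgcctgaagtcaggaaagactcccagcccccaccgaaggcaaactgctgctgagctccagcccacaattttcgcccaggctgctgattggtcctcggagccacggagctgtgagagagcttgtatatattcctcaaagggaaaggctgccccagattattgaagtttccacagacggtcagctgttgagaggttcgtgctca
The Acta2 stretch held the match CCCTATATGG, which begins 84 bases before the start, and CCTTGTTTGG, which begins 34 bases before it, while the Rgs5 stretch held no match of either form. Both forms read the same on either strand. The strict form was present in 1.63% of all 32851 promoters of this length and the looser form in 8.5%. Of 25 contractile and panel genes 20 had an entry, and Tagln and Col1a1, which are among the highest in mural-like barcodes, had none. Among the other highest genes with an entry, Cald1, Tpm1, Col3a1 and Itga1 held neither form in this window.

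The Ifngr1iProx1 library held 33 stromal barcodes, 1.71% [1.18, 2.40] of the 1928 that passed the filters, and the Ifngr1WT library 23, 1.32% [0.841, 1.98] of 1737, by exact Clopper-Pearson intervals. Per 100 barcodes of the blood endothelial panel that is 15.3 and 9.02. The stromal barcodes were deeper in Ifngr1iProx1, with a median of 41741 UMIs (1574 to 137270), than in Ifngr1WT, with a median of 17962 (2499 to 122923). The filters left 820 lymphatic, 215 blood endothelial, 562 melanoma and 66 phagocyte barcodes in Ifngr1iProx1, against 232, 255, 969 and 78 in Ifngr1WT; the whole libraries held 66704257 and 76967583 UMIs. A single barcode name occurred in both libraries.

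Most members had stromal sums far above the threshold, with medians of 562 UMIs in Ifngr1iProx1 and 225 in Ifngr1WT, but a few stood at its edge. The lowest stromal panel sums among them were 14 and 25 UMIs in Ifngr1iProx1 and 5 and 20 in Ifngr1WT, and just outside stood 2 barcodes in each library whose stromal sum was the largest but reached at most 4. The smallest ratio of the stromal sum to the next panel was 1.81 in Ifngr1iProx1, in a mural-like barcode with 562 stromal and 310 blood endothelial UMIs and 37 each of Pecam1 and Cdh5, and 1.25 in Ifngr1WT, in a collagen-led barcode with 5 stromal and 4 melanoma UMIs. Another 7 barcodes of Ifngr1iProx1 and 4 of Ifngr1WT had 5 or more stromal UMIs but more of another panel. RNA of the sort marker was mostly missing: Pecam1, which encodes CD31, and Cdh5, another endothelial junction gene, had no UMI in 51 of the 56 members and 5 or more UMIs together in 1. The leukocyte gene Ptprc, which encodes the excluded marker CD45, was present in 1. Blood endothelial panel UMIs reached 5 in 30 members, and most of these came from Flt1, a VEGF receptor, which stood at 439 CPM (UMIs per 1000000 UMIs of the class) in mural-like barcodes of Ifngr1iProx1 and 101 CPM in those of Ifngr1WT. The Ifngr1iProx1 value includes the barcode with 310 blood endothelial panel UMIs, while the next highest mural-like barcode there had 68.

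**Figure D1:**
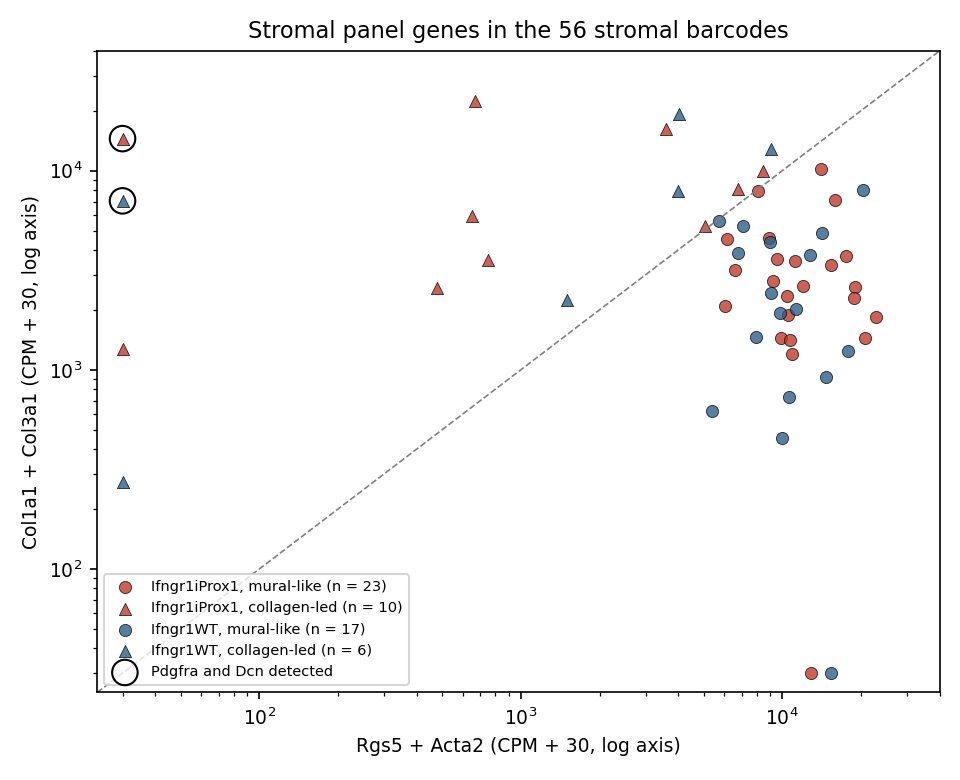
Each point is 1 of the 56 stromal barcodes, with Rgs5 plus Acta2 on the x axis and Col1a1 plus Col3a1 on the y axis, both in CPM plus a small constant on log axes, coloured by library, with the line of equality and rings around barcodes in which Pdgfra and Dcn were detected. Of the 56 barcodes, 40 lie on the Rgs5 and Acta2 side and 16 on the collagen side, and several stand near the line.

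Most members were mural-like: 23 of 33 in Ifngr1iProx1, or 69.7% [51.3, 84.4], and 17 of 23 in Ifngr1WT, or 73.9% [51.6, 89.8]. The remaining 10 and 6 were collagen-led. Depth was near that of all members, with medians of 43442 UMIs in Ifngr1iProx1 and 17962 in Ifngr1WT for mural-like barcodes, and 35632.5 and 17011.5 for collagen-led ones. The mural-like name fits its markers, since 39 of 40 barcodes had at least 3 of the 8 genes Pdgfrb, Cspg4, Notch3, Abcc9, Kcnj8, Higd1b, Tagln and Myh11. Of the fibroblast genes Pdgfra, Dcn, Lum and Dpt, 1 of these 40 barcodes had any. The listed fibroblast genes Col1a2, Thy1, Postn and Fap were common in them, with a UMI in 36, 36, 38 and 19 of the 40.

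By the genes Pdgfra, Dcn, Lum and Dpt, the collagen-led barcodes did not bear out the name fibroblast as a group. The listed fibroblast genes Col1a2, Thy1, Postn and Fap were present in 15, 12, 12 and 5 of the 16 barcodes. Mural-like barcodes held these genes as well. Of the 16, 9 had at least 3 of the same mural markers and 6 had Rgs5, while 7 had any of Pdgfra, Dcn, Lum and Dpt. Several of these 7 had no more than 1 UMI of any of the 4 genes. All 4 were found together in 2 barcodes, which resembled each other across libraries. The Ifngr1iProx1 one, with 84137 UMIs, had 924 UMIs of Col3a1, 137 of Dcn, a collagen-binding proteoglycan, 212 of Mfap5, a microfibril protein, and 238 of the surface antigen Ly6a; the Ifngr1WT one, with 75883 UMIs, had 234 of Col3a1, 102 of Dcn, 255 of Mfap5 and 240 of Ly6a. Both had 0 UMIs of Rgs5 and Acta2.

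The other 14 collagen-led barcodes were of several kinds. Rgs5 was present in 6, of which the deepest, in Ifngr1iProx1 with 47430 UMIs, had 198 UMIs of Rgs5 and 123 of Acta2 against 180 of Col1a1 and 201 of Col3a1, close to the line of the split. Tagln, an actin-binding protein of smooth muscle, stood beside Mgp, a matrix calcification inhibitor, in several barcodes without Rgs5, the clearest being one of Ifngr1iProx1 with 87 and 78 of its 2238 UMIs and one of Ifngr1WT with 72 and 131 of its 5746. A barcode of Ifngr1iProx1 with 11208 UMIs had no Rgs5 or Acta2 but 56 UMIs of Sostdc1, a BMP and Wnt antagonist, and 29 of Rspo1, a Wnt agonist. In Ifngr1WT, 1 barcode of 20533 UMIs entered on 5 UMIs of Col1a1 alone, had 0 of the 8 mural markers, and carried 82 UMIs of the MHC class II chain Cd74 and 31 of Lcn2, a secreted iron-binding protein, so it bears out neither name. The smallest member, with 1574 UMIs in Ifngr1iProx1, drew 42.6% of them from Gm42418, a gene that overlaps ribosomal RNA.

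**Figure D2:**
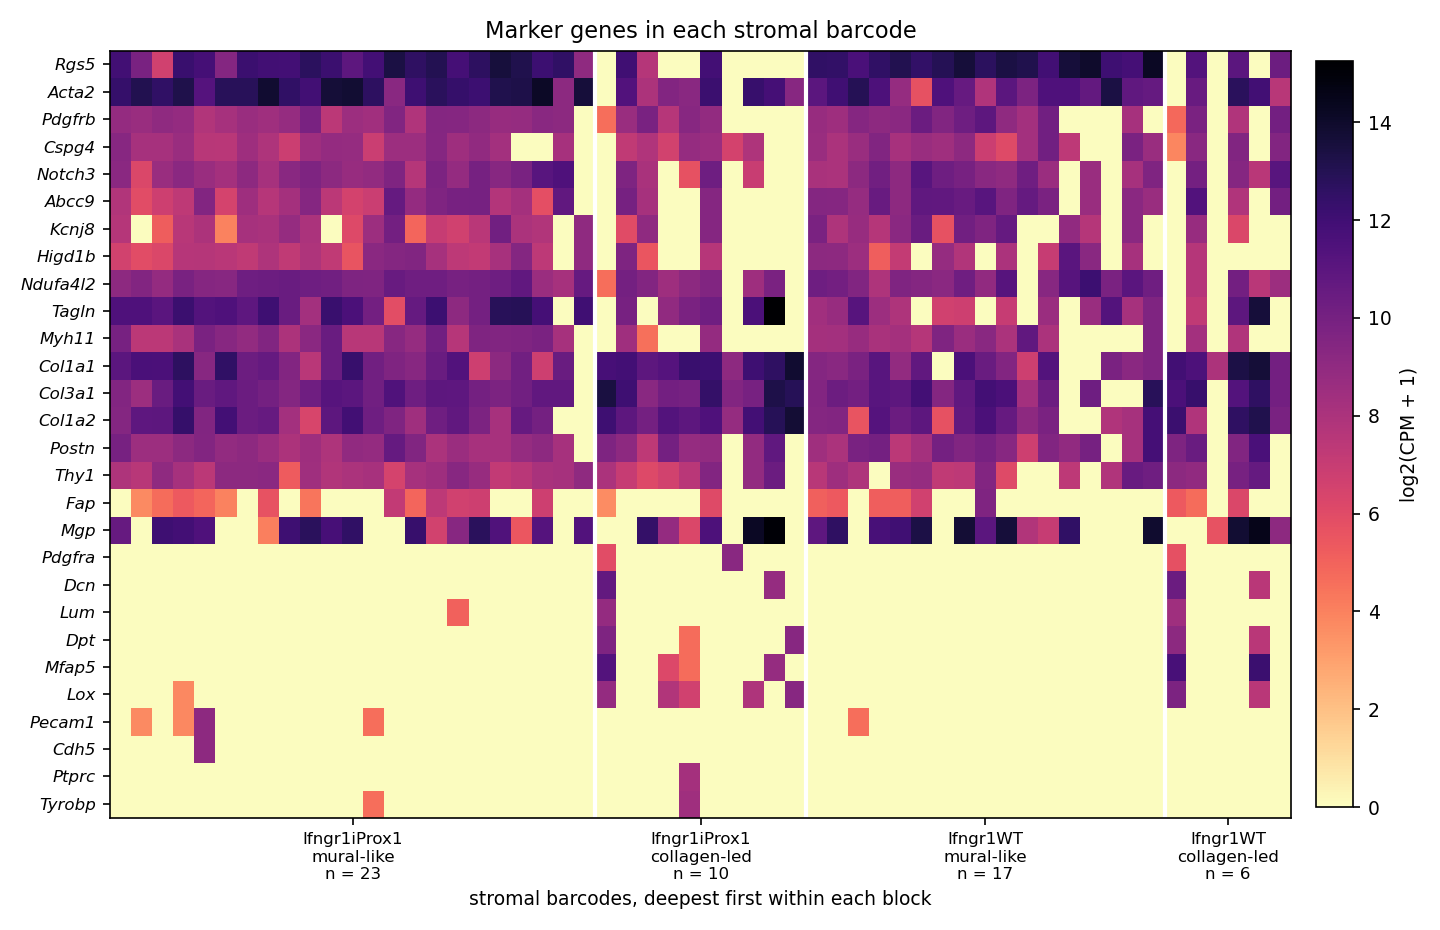
Rows are marker genes and columns the 56 stromal barcodes, in blocks by kind and library and deepest first within a block, with colour giving log2(CPM + 1). Mural-like blocks show Rgs5 and Acta2 in all 40 barcodes, the other mural markers in most (Kcnj8 in 33, Pdgfrb in 35, Notch3 in 37) and next to nothing in the rows of Pdgfra, Dcn and Lum, which are filled together in 2 collagen-led barcodes.

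The panel genes give the order of levels. Rgs5 stood at 4145 CPM in mural-like barcodes of Ifngr1iProx1 and 6694 CPM in those of Ifngr1WT, and at 1036 and 830 CPM in collagen-led barcodes, where 1 barcode held 61.1% and 74.6% of the Rgs5 UMIs. Acta2 stood at 7376 and 2796 CPM in mural-like and 1225 and 1103 CPM in collagen-led barcodes. Mural-like barcodes also held the collagens, with Col1a1 at 2272 CPM in Ifngr1iProx1 and 962 CPM in Ifngr1WT and Col3a1 at 1454 and 1471 CPM, against 3440 and 3972 CPM of Col1a1 and 4652 and 3166 CPM of Col3a1 in collagen-led barcodes. Pdgfrb, which was not in the panel, had 439 CPM in mural-like barcodes of Ifngr1iProx1 and 623 CPM in those of Ifngr1WT, and 355 and 291 CPM in collagen-led barcodes.

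Few barcodes outside the members had Rgs5, and 1 in the blood endothelial panel had much of it. At an equal depth of 5000 UMIs per barcode, the expected share of barcodes with an Rgs5 UMI was 97.0% of mural-like barcodes in Ifngr1iProx1 and 100% in Ifngr1WT, against 1.65% and 1.76% of blood endothelial and 0.151% and 0.288% of melanoma barcodes; barcodes below that depth, 2 and 4 of the mural-like and 60 and 80 of the blood endothelial ones, were left out. Without thinning, the blood endothelial shares were 2.79% and 4.31%, at median depths of 13638 and 9351 UMIs. Because Rgs5 helped choose the members, these shares were largely set by the rule. For Notch3, which is in no panel, the expected shares at 5000 UMIs were 89.1% and 86.7% of mural-like barcodes in Ifngr1iProx1 and Ifngr1WT. Those of blood endothelial barcodes were 0.382% and 0.809%. One blood endothelial barcode of Ifngr1iProx1, with 326715 UMIs, 2090 of its panel and 1188 of the stromal panel, held 95.9% of the Rgs5 UMIs of its class. Comparisons with blood endothelium below leave out barcodes with 5 or more stromal UMIs, a choice made after this had been seen.

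Genes outside the panel separated the members from the barcodes of the other 4 panels by large ratios. Of the 15740 genes with at least 50 UMIs over both sides, 20.9% were higher and 17.1% lower by 2-fold or more in stromal barcodes. All 23 listed pericyte genes were measured and higher, with a median log2 ratio of 7.52 beside 0.10 over all genes, and 18 of 19 measured contractile and 20 of 22 measured fibroblast genes were higher. The 15 genes with the ratios furthest above 0, both libraries agreeing in sign, included subunits of soluble guanylate cyclase, the receptor for nitric oxide: Gucy1a2 at 353 CPM in stromal and 0.226 CPM in other barcodes of Ifngr1iProx1 and 373 and 0.0563 CPM in Ifngr1WT, with Gucy1a1 at 215 and 0.129 CPM and 327 and 0.0563 CPM. Since the rule chose the barcodes, these ratios measure how cleanly it did so.

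The same 15 genes included matrix genes (Col6a1 and Col6a2 of microfibrillar collagen VI, Col1a2, and Postn, a matricellular protein), regulators (Ebf2, the transcriptional coactivator Myocd, which drives smooth muscle genes, the imprinted RNA Meg3 and the imprinted surface protein Dlk1), the receptor Notch3, the kinase Mark1, the pericyte gene Higd1b and the olfactory-type receptor Olfr558. Notch3 stood at 486 CPM in stromal and 0.644 CPM in other barcodes of Ifngr1iProx1, and at 544 and 0.310 CPM in Ifngr1WT. Dlk1 was at 138 and 0.322 CPM in Ifngr1iProx1, and at 362 CPM and 0 UMIs in Ifngr1WT. The pericyte genes that form the vascular ATP-sensitive potassium channel were less restricted: Kcnj8 stood at 206 CPM in stromal and 211 CPM in lymphatic barcodes of Ifngr1iProx1, and at 490 and 138 CPM in Ifngr1WT, and its partner Abcc9 at 328 and 69.8 CPM and at 859 and 61.1 CPM.

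Set against each other over both libraries, mural-like barcodes were higher than collagen-led ones in genes of contraction and of pericytes, and lower in matrix genes and in genes that interferon-gamma induces. Of 6057 genes with at least 50 UMIs, 9.72% were 2-fold or more higher and 5.42% lower in mural-like barcodes, with a median log2 ratio of 0.14. The split used Rgs5, Acta2 and the collagens, so the directions of Rgs5 (2.32), Acta2 (2.38), Col1a1 (-0.91) and Col3a1 (-1.51) were set by it. The pericyte list had 17 of 23 genes higher and 0 lower, with a median of 1.37, and the contractile list 11 of 18 measured genes higher and 1 lower, with a median of 1.53. Within libraries the pericyte median was 1.06 in Ifngr1iProx1 and 2.52 in Ifngr1WT, and the contractile median 1.77 and 0.87. Without the barcodes that hold at least 20 Dcn UMIs the pericyte and contractile medians were 0.78 and 1.03, and with one pair of split genes at least 3 times the other they were 3.53 and 2.65.

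The 12 genes furthest above 0 held several contractile ones: Myl9, a myosin light chain, stood at 1035 CPM in mural-like and 162 CPM in collagen-led barcodes (log2 ratio 2.67 [2.34, 3.02]), and Myh11, the smooth muscle myosin heavy chain, at 524 and 99.1 CPM (2.40 [1.98, 2.86]). Actg2, the enteric smooth muscle actin, and Ppp1r14a, an inhibitor of myosin phosphatase, had ratios of 2.47 and 2.51. The growth factor Tgfb2 stood at 240 CPM in mural-like and 23.2 CPM in collagen-led barcodes (3.37 [2.52, 4.39]). Junction proteins were among them too, with Gja4, a gap junction protein of vessels, at 137 and 14.8 CPM and Esam, an adhesion molecule, at 173 and 23.2 CPM. The fatty acid carriers Fabp4 and Fabp5 were abundant, at 2097 and 2063 CPM in mural-like against 468 and 363 CPM in collagen-led barcodes. The remaining 3 were the histone H2afx, the cytoskeletal Epb41l1 and Trarg1, a regulator of glucose transporter traffic.

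On the collagen-led side, 10 of 19 measured fibroblast genes and 9 of 22 fibrillar matrix genes were 2-fold or more higher, beside 5.42% of all genes. The mural-like over collagen-led medians were -1.01 and -0.91. Much of this came from few barcodes. Dcn had 0 UMIs in mural-like and 241 in collagen-led barcodes, of which 137 and 102 lay in the pair with all 4 fibroblast genes, and Mfap5 had 0 and 499. Without the barcodes that hold at least 20 Dcn UMIs, the median of the fibroblast list was -0.25. Other matrix genes were shared: Postn stood at 544 CPM in mural-like and 709 CPM in collagen-led barcodes, and Sparc, which binds collagen, at 6451 and 6298 CPM.

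Interferon-responsive genes were higher on the collagen-led side. Of 16 measured genes of that list, 9 were 2-fold or more lower in mural-like barcodes and 0 higher, with a median of -1.20. The backgrounds were 5.42% lower and 9.72% higher. The MHC class I chains H2-K1 and H2-D1 stood at 127 and 466 CPM in mural-like barcodes, against 626 and 911 CPM in collagen-led ones (log2 ratios -2.30 [-2.57, -2.03] and -0.97 [-1.14, -0.79]). The same direction held within each library, with 12 of 13 measured genes lower in Ifngr1iProx1 (background 5.77% lower) and 4 of 9 in Ifngr1WT (8.59%). The collagen-led side was 10 and 6 barcodes, so single barcodes weigh heavily. In Ifngr1WT, 1 barcode held 75883 of the 161396 collagen-led UMIs. Among the 12 genes furthest below 0 by the naming rule, Tap1, a peptide transporter of antigen presentation, Ddx58, an RNA sensor, and Samd9l are known interferon targets, and Thbs2, a matricellular protein, and Vim, an intermediate filament, are mesenchymal; the others were Fnip1, Clcn5, Anxa4, Sertad1, Derl1 and Cmip.

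Before the genotypes were compared, the gene named in the genotype was read. Ifngr1 (chr10:19591949-19610229) had 55 UMIs, or 49.2 CPM, in mural-like barcodes of Ifngr1iProx1 and 17 UMIs, or 42.0 CPM, in those of Ifngr1WT, a log2 ratio of 0.23 [-0.58, 1.11] whose interval includes 0. In lymphatic barcodes it stood at 28.8 and 49.0 CPM (-0.77 [-1.07, -0.45]). A 3′ count need not lie in the deleted part, so these values do not check the deletion. Prox1 itself had 3 UMIs in 3 of 33 stromal barcodes of Ifngr1iProx1 and 0 in 23 of Ifngr1WT, against 569 and 397 CPM in lymphatic barcodes. Ifngr2, the second receptor chain, stood at 156 and 98.9 CPM in mural-like barcodes (0.66 [0.16, 1.20]), and the kinases Jak1 (0.22 [-0.19, 0.63]) and Jak2 (-0.24 [-0.92, 0.49]) had intervals that included 0.

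Between genotypes, mural-like barcodes of Ifngr1iProx1 held more contractile and less pericyte RNA than those of Ifngr1WT. Over 5064 genes measured in them, 4.48% were 2-fold or more higher and 3.57% lower in Ifngr1iProx1, with a median log2 ratio of -0.03. In the contractile list 9 of 17 measured genes were 2-fold or more higher and 0 lower, with a median of 1.14, and 16 of the 17 had a ratio above 0. In the pericyte list 0 of 23 were 2-fold or more higher and 4 lower, with a median of -0.70, and 2 of the 23 had a ratio above 0. Neither list holds Rgs5 or Acta2. The mural-like barcodes of Ifngr1iProx1 were also the deeper ones, as given above, and the part of depth in this difference was not tested beyond the restriction to deep barcodes below.

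Acta2, which lies at chr19:34241090-34255590 in mm10, showed the balance barcode by barcode, although its UMIs helped choose these barcodes. It spanned 570 to 18311 CPM with a median of 6895 over 23 barcodes of Ifngr1iProx1, against 49.8 to 10479 CPM with a median of 2058 over 17 of Ifngr1WT. The ranges overlapped, yet 21 of the 23 lay above the Ifngr1WT median and 5 above the highest Ifngr1WT barcode. Summed over barcodes the log2 ratio was 1.40 [1.31, 1.49].

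Tagln (chr9:45929619-45936058) had 0 to 7661 CPM with a median of 2794 in Ifngr1iProx1, and 0 to 2453 CPM with a median of 296 in Ifngr1WT. Here 13 of 23 barcodes lay above every Ifngr1WT barcode, and the summed ratio was 2.48 [2.27, 2.69]. Myl9 spanned 285 to 2471 CPM (median 1206) in Ifngr1iProx1 and 0 to 1306 CPM (median 296) in Ifngr1WT, with 22 of 23 barcodes above the Ifngr1WT median. The actin-binding tropomyosins Tpm1 (2189 CPM in Ifngr1iProx1 and 883 CPM in Ifngr1WT) and Tpm2 (1231 and 722 CPM) and the caldesmon gene Cald1 (2511 and 1716 CPM) pointed the same way. Itga1, a collagen-binding integrin, differed least of the 6 most abundant genes, at 1434 and 1189 CPM (0.27 [0.12, 0.42]). Des, the muscle intermediate filament desmin, was the single measured gene of the list below 0, at 248 and 272 CPM (-0.13 [-0.46, 0.20]).

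Rgs5 (chr1:169655501-169695813) ran opposite to Acta2. The sum of both genes chose the class, so a barcode with little Acta2 needed Rgs5 to enter. The part of the rule in this order was not tested. Rgs5 spanned 97.3 to 11775 CPM with a median of 4537 in Ifngr1iProx1 and 3260 to 18808 CPM with a median of 6792 in Ifngr1WT. Of the 23 Ifngr1iProx1 barcodes 5 lay below the lowest Ifngr1WT barcode and 5 above the Ifngr1WT median, and the summed log2 ratio was -0.69 [-0.76, -0.62]. Abcc9 (chr6:142587862-142702315), the regulatory subunit of the potassium channel, had 0 to 1710 CPM (median 219) in Ifngr1iProx1 and 0 to 2227 CPM (median 683) in Ifngr1WT, with a ratio of -1.41 [-1.62, -1.20]. Its pore subunit Kcnj8, chosen after its values were seen, had 222 CPM in Ifngr1iProx1 and 640 CPM in Ifngr1WT (-1.53 [-1.79, -1.27]), but 1 Ifngr1WT barcode held 42.9% of the UMIs there.

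The other genes of the list that were 2-fold or more lower were Steap4, at 76.9 CPM in Ifngr1iProx1 and 255 CPM in Ifngr1WT (-1.73 [-2.16, -1.30]), and Tbx2, a transcription factor, at 119 and 242 CPM (-1.03 [-1.41, -0.63]), the last named after its values were seen. The most abundant pericyte genes stayed within 2-fold, Abcc9 aside. The transcription factor Ebf1 stood at 1546 CPM in mural-like barcodes of Ifngr1iProx1 and 2702 CPM in those of Ifngr1WT (-0.81 [-0.92, -0.69]). Pdgfrb had a ratio of -0.50 [-0.73, -0.28]. The intervals of Notch3 (-0.16 [-0.38, 0.06]) and of the adhesion molecule Mcam (0.15 [-0.09, 0.40]) included 0, and that of Ndufa4l2, a mitochondrial protein of hypoxic cells, reached it (-0.17 [-0.33, 0.00]).

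The same order was present among deep barcodes. Among mural-like barcodes with at least 10000 UMIs, 21 in Ifngr1iProx1 and 10 in Ifngr1WT, the summed contractile list had medians of 16375 and 6710 CPM, and all 21 lay above the Ifngr1WT median. For the summed pericyte list the medians were 7700 and 15398 CPM, and 0 of the 21 lay above the Ifngr1WT median. With all barcodes, 12 of 23 exceeded the highest Ifngr1WT barcode in the contractile list, while the ranges of the pericyte list overlapped, at 3314 to 18809 CPM in Ifngr1iProx1 and 1561 to 18821 CPM in Ifngr1WT.

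**Figure D3:**
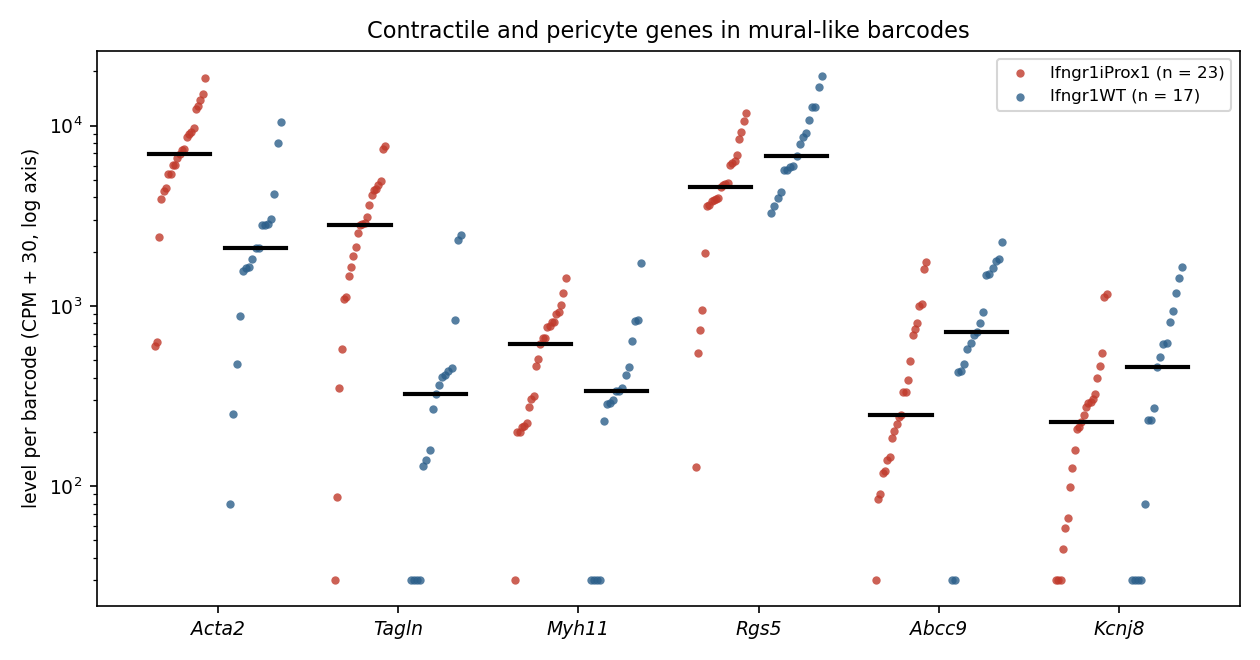
Each point is 1 mural-like barcode, 23 from Ifngr1iProx1 on the left and 17 from Ifngr1WT on the right of each of 6 genes, with the level in CPM plus a small constant on a log axis and a bar at the median. Acta2, Tagln and Myh11 have higher medians in Ifngr1iProx1 (6895, 2794 and 581 CPM, against 2058, 296 and 308 CPM in Ifngr1WT), Rgs5, Abcc9 and Kcnj8 lower ones (4537, 219 and 197 CPM, against 6792, 683 and 425 CPM), and the barcodes of the libraries overlap for every gene.

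The collagen-led barcodes did not show this balance. With 10 against 6 barcodes, 1648 genes were measured, of which 10.3% were 2-fold or more higher and 7.16% lower in Ifngr1iProx1, so single barcodes weigh heavily. The contractile list had a median of -0.07 with 0 of 11 measured genes higher and 1 lower, and the pericyte list a median of 0.29 with 4 of 11 higher and 1 lower. Acta2 stood at 1225 CPM in Ifngr1iProx1 and 1103 CPM in Ifngr1WT (0.15 [-0.11, 0.42]). The difference between mural-like and collagen-led barcodes in their genotype ratios was not tested.

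Matrix genes of mural-like barcodes were higher in Ifngr1iProx1 for some collagens and not for others. Col1a1 (chr11:94936224-94953042) had a median of 1290 CPM (0 to 6414) in Ifngr1iProx1 and 710 CPM (0 to 3049) in Ifngr1WT, with a summed log2 ratio of 1.24 [1.09, 1.40]. Its partner chain Col1a2 had 1659 and 996 CPM (0.74 [0.58, 0.89]), whereas Col3a1 had 1454 and 1471 CPM (-0.02 [-0.15, 0.12]). By rule mural-like barcodes held fewer Col1a1 and Col3a1 than Rgs5 and Acta2 UMIs, so a barcode with more Acta2 could hold more of these collagens. The part of the rule in the Col1a1 ratio was not tested, and in collagen-led barcodes that ratio had the opposite sign. Of 19 measured fibrillar matrix genes 2 were 2-fold or more higher and 0 lower, beside backgrounds of 4.48% and 3.57%. The 2 were Col8a1, a short-chain collagen of vessel walls, at 881 and 237 CPM, and Tnc, the matrix protein tenascin C, at 133 and 9.89 CPM. Tnc was found in 10 of 23 and 2 of 17 barcodes, with 43.0% of its UMIs of Ifngr1iProx1 in 1 of them. In the basement membrane list 0 of 15 passed 2-fold in either direction, and Sparc and the collagen IV chain Col4a1 had ratios of 0.03 and 0.19.

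Beside backgrounds of 4.48% higher and 3.57% lower, ligands that act on vessels were 2-fold or more higher for 4 of 9 measured genes and lower for 0. These were Ccn2, a matrix-associated growth factor also known as CTGF, at 1247 CPM in Ifngr1iProx1 and 299 CPM in Ifngr1WT (2.06 [1.79, 2.34]), Tgfb2 at 295 and 89.0 CPM, Tgfb3 at 190 and 81.6 CPM, and Ptn, of which 1 barcode held 99.4% of the UMIs. Per barcode, Ccn2 had a median of 1011 CPM (0 to 3784) in Ifngr1iProx1 and 0 CPM (0 to 2647) in Ifngr1WT. The Notch ligand Jag1 had a ratio of 0.06 [-0.35, 0.50]. The monocyte chemokine Ccl2 was found in 12 of 23 barcodes of Ifngr1iProx1 and 4 of 17 of Ifngr1WT, at 348 and 27.2 CPM, with 36.8% of the Ifngr1iProx1 UMIs in 1 barcode. Collagen-led barcodes had the opposite order, 67.1 and 483 CPM, with 85.9% of the Ifngr1WT UMIs in 1 barcode.

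**Figure D4:**
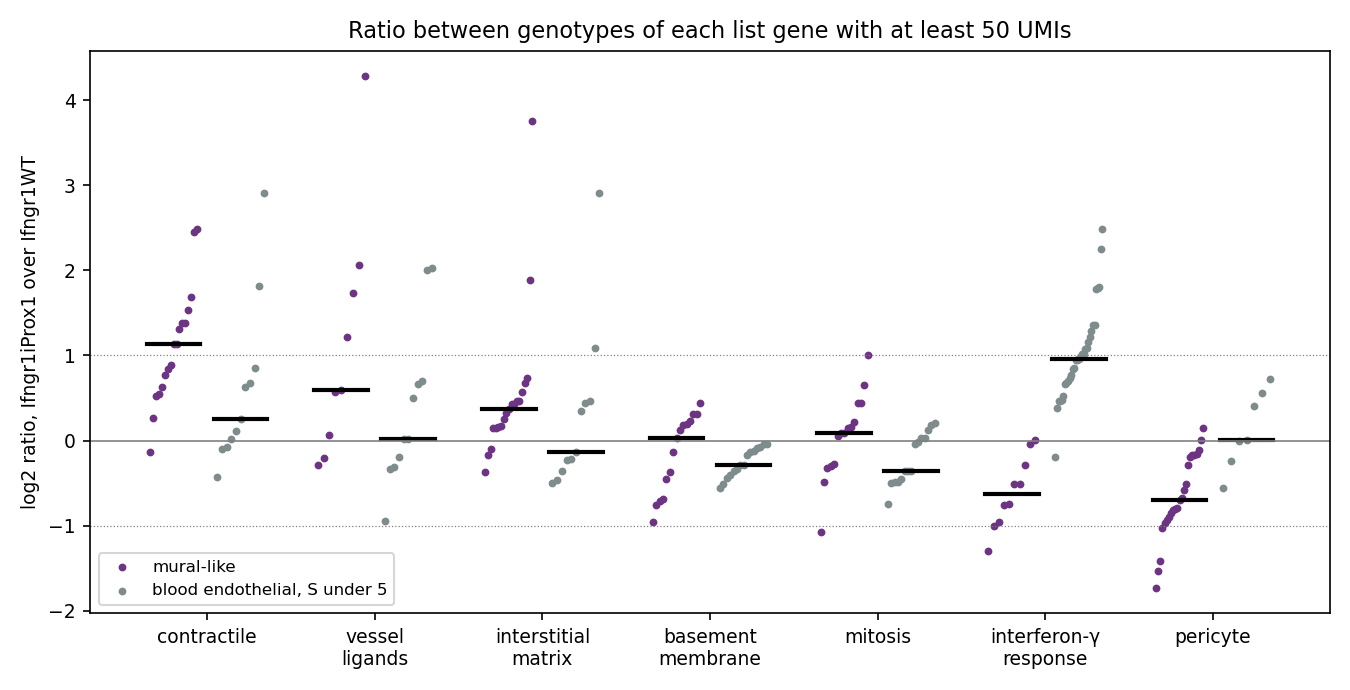
Each point is a list gene with at least 50 UMIs, placed by its log2 ratio of Ifngr1iProx1 over Ifngr1WT on the y axis, in mural-like barcodes (left of each pair) and in blood endothelial barcodes with under 5 stromal UMIs (right), with bars at the medians and dotted lines at 2-fold; the highest vessel ligand, Ptn, is drawn at its lower bound. In mural-like barcodes the contractile list lies above 0 (median 1.14) and the pericyte list below it (median -0.70).

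Over all stromal barcodes the naming rule gave 8 genes on each side. The higher ones in Ifngr1iProx1 were Sorbs2, an actin-linked adaptor (138 CPM, against 10.6 CPM in Ifngr1WT), the basement membrane netrin Ntn4 (257 and 44.2 CPM), Tagln, the matricellular Thbs1 (485 and 127 CPM), the annexin Anxa1 (2736 and 852 CPM), the immediate-early factor Fosb, Ccn2, and Mustn1, a small muscle protein. The lower ones were Camk1d, a calmodulin-dependent kinase (194 and 740 CPM), Cmss1 (528 and 1507 CPM), Arhgap32, the metalloreductase Steap4 (62.2 and 196 CPM), Abcc9, Snx25, Arhgap26 and the mitochondrial tRNA synthetase Lars2 (200 and 514 CPM). Beside these, Gm42418 stood at 4705 CPM in Ifngr1iProx1 and 18012 CPM in Ifngr1WT, and AY036118, another gene in ribosomal DNA, at 567 and 1827 CPM; their part in the result was not tested.

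Fosb was not alone. Of 16 measured immediate-early genes, which are also switched on by tissue digestion, 7 were 2-fold or more higher in Ifngr1iProx1 stromal barcodes and 0 lower, with a median of 0.89 beside backgrounds of 3.32% higher and 3.04% lower. The kinds of barcode were unlike, with 4 of 15 measured genes higher and 1 lower and a median of 0.53 in mural-like barcodes, and 10 of 11 higher and 1 lower and a median of 2.26 in collagen-led ones. The backgrounds were 4.48% higher and 3.57% lower in mural-like and 10.3% and 7.16% in collagen-led barcodes. Blood endothelial barcodes had 10 of 17 higher and 0 lower, with a median of 1.08, beside backgrounds of 2.15% and 0.796%. The part of these genes in the other differences was not tested.

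Mural-like barcodes held less interferon-induced RNA than blood endothelial ones. Against blood endothelial barcodes of the same library, 28 of 30 measured genes of the interferon-gamma response were 2-fold or more lower and 0 higher in Ifngr1iProx1, where 18.5% of all genes were lower and 10.6% higher, and 11 of 25 were lower and 0 higher in Ifngr1WT, where 19.4% were lower and 9.96% higher. The list summed to 1867 CPM in mural-like and 7382 CPM in blood endothelial barcodes of Ifngr1iProx1, and to 2789 and 4174 CPM in Ifngr1WT. H2-K1 stood at 102 and 873 CPM in Ifngr1iProx1 and 198 and 449 CPM in Ifngr1WT. The chemokine Cxcl9, which draws T cells, stood at 14.3 and 660 CPM, and at 17.3 and 189 CPM. Ifngr1 was lower in mural-like barcodes too, by log2 ratios of -1.85 [-2.27, -1.45] and -1.81 [-2.61, -1.12].

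Between genotypes, the same list had 0 of 10 measured genes 2-fold or more higher and 1 lower in mural-like barcodes, with a median of -0.63 and 1 gene above 0. The backgrounds were 4.48% higher and 3.57% lower. B2m, the light chain of MHC class I, spanned 0 to 1785 CPM (median 678) in Ifngr1iProx1 and 0 to 2774 CPM (median 815) in Ifngr1WT, with a summed ratio of -0.51 [-0.68, -0.33]. H2-K1 had a median of 92.2 CPM (0 to 570) and 163 CPM (0 to 889). For the summed list 7 of 23 barcodes lay above the Ifngr1WT median. Among barcodes with at least 10000 UMIs the medians were 1983 CPM in Ifngr1iProx1 and 2768 CPM in Ifngr1WT, and 1 of 21 lay above the Ifngr1WT median and 7 below the lowest Ifngr1WT barcode. In blood endothelial barcodes the order was the other way, with 14 of 31 genes higher and 0 lower and a median of 0.96. The backgrounds there were 2.15% higher and 0.796% lower, and the difference between the classes was not tested.

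**Figure D5:**
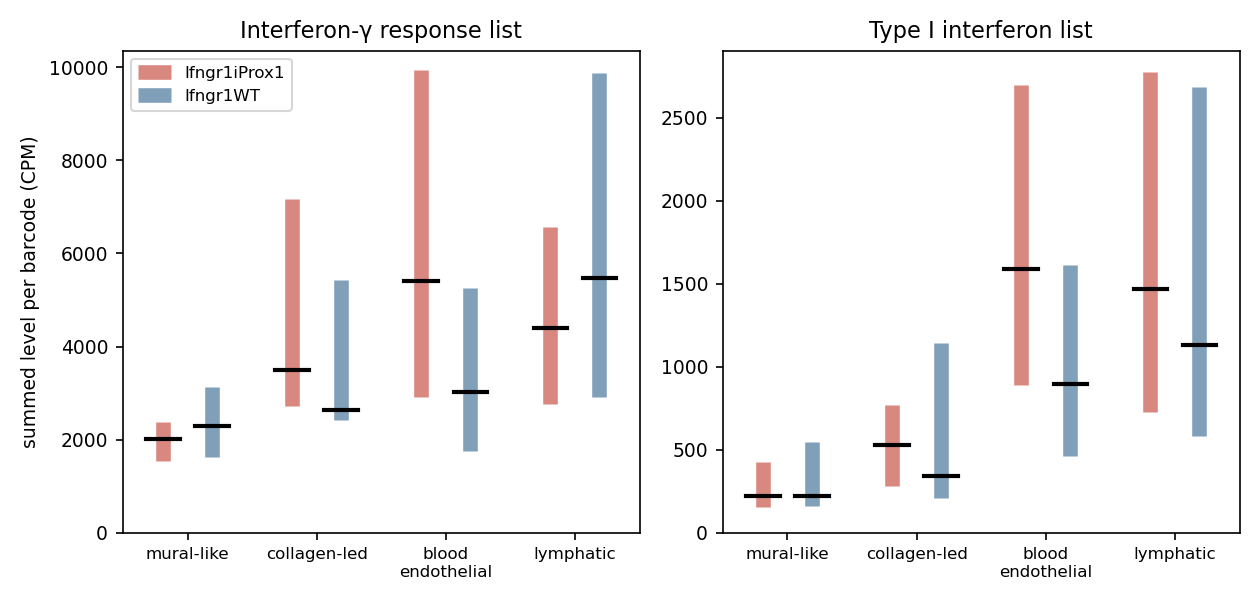
Boxes span the lower to the upper quartile over barcodes of the summed level in CPM of the interferon-gamma response list (left) and the type I interferon list (right), with a bar at the median, by class of barcode and with Ifngr1iProx1 left of Ifngr1WT. For the interferon-gamma list mural-like barcodes have medians of 2022 and 2285 CPM, below blood endothelium (5418 and 3021 CPM, all its barcodes included), and for the type I list 219 and 223 CPM, against 1587 and 897 CPM.

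Cell cycle genes were detected in a larger share of mural-like than of blood endothelial barcodes. By the count of detected genes the share was near that of melanoma barcodes, but this count depends on depth. Median depths in Ifngr1iProx1 were 43442 UMIs for mural-like, 13638 for blood endothelial and 16235 for melanoma barcodes. In Ifngr1WT they were 17962, 9351 and 16577. At least 10 of 15 listed mitosis genes were detected in 8 of 23 barcodes of Ifngr1iProx1, or 34.8% [16.4, 57.3], and in 4 of 17 of Ifngr1WT, or 23.5% [6.81, 49.9], against 11.6% [7.67, 16.7] and 8.24% [5.17, 12.3] of blood endothelial barcodes. Collagen-led barcodes had 2 of 10 and 2 of 6, and melanoma barcodes 24.2% and 25.8%. Among barcodes with at least 10000 UMIs the shares were 38.1% and 40% for mural-like, 28.6% and 50% for collagen-led, 18.0% and 11.7% for blood endothelial and 33.9% and 36.0% for melanoma barcodes. The proliferation antigen Mki67 stood at 308 CPM in mural-like and 72.9 CPM in blood endothelial barcodes of Ifngr1iProx1, and at 289 and 66.8 CPM in Ifngr1WT. At an equal depth of 5000 UMIs, Mki67 was expected in 33.7% and 39.9% of mural-like barcodes in Ifngr1iProx1 and Ifngr1WT. The melanoma shares were 17.7% and 16.1%, and the blood endothelial ones 13.3% and 13.3%. For the cell cycle gene Top2a they were 22.5% and 37.1% of mural-like, 25.6% and 26.1% of melanoma and 10.9% and 14.2% of blood endothelial barcodes. Against blood endothelial barcodes of the same library, all 15 genes were 2-fold or more higher in mural-like barcodes of Ifngr1iProx1, where 10.6% of all genes were. In Ifngr1WT 11 of 15 were, where 9.96% of all genes were. Between genotypes 1 of the 15 was higher and 1 lower in mural-like barcodes, with a median of 0.09, beside backgrounds of 4.48% higher and 3.57% lower.

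Endothelial, phagocyte and melanoma markers stayed low in mural-like barcodes. The 12 endothelial markers outside the panels summed to 422 CPM in Ifngr1iProx1 and 294 CPM in Ifngr1WT, against 10141 and 9448 CPM in blood endothelium, and Esam, which pericytes also carry, was among them while Tek was at 0 in both. Phagocyte markers summed to 13.4 and 7.42 CPM and melanoma markers to 17.9 and 27.2 CPM. Some other lists were above blood endothelium in both libraries. Schwann cell markers summed to 93.9 and 81.6 CPM, against 29.9 and 46.6 CPM there, and adipocyte markers to 70.7 and 84.1 CPM, against 12.9 and 4.15 CPM. Platelet markers summed to 26.8 and 84.1 CPM, against 10.3 and 36.2 CPM. Haemoglobin genes were below it, at 42.0 and 59.3 CPM against 5025 and 85.8 CPM.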

How the data were processed

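Tumor cells sorted as DAPI-negative, CD31-positive and CD45-negative gave 1 library per genotype, each from 3 pooled tumors, made with a 3′ kit per the labels' protocols. The authors deposited raw UMI counts per gene and barcode for 32285 genes (32245 symbols, with counts of a repeated symbol summed); Cell Ranger 7.0.0 and mm10 are named in the submitters' processing notes. Groups follow the genotype labels.

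Barcodes were filtered and classed by panel sums as described in the results; no doublet caller was run and mixed barcodes were kept. UMIs were summed per class and library, divided by the class total to give CPM, and compared as log2 ratios with exact conditional binomial 95% intervals; shares have Clopper-Pearson intervals. UMIs of 1 pool are not independent samples, so these cover counting error only. A ratio needed 50 UMIs over both sides, and a class at 0 was set to a floor of 3 counts. Detection at 5000 UMIs is a hypergeometric expectation. Intervals are narrow for abundant genes and wide for those with few UMIs. Gene coordinates are from GENCODE mouse M21, which held 99.6% of the gene IDs.

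Named genes were the panel genes and Pdgfrb, up to 6 members of each list with most UMIs, and the genes with the interval bound furthest from 0 (12 on each side for mural-like over collagen-led, 15 for stromal over other, 8 on each side for genotype), with a UMI in at least 25% of the higher side's barcodes and no barcode with over 25% of its UMIs; mitochondrial, ribosomal, haemoglobin, sex-linked and unnamed genes were left out. Genes named outside this rule, and the single barcodes described, were chosen after their values were seen. Some genes that the rule or the lists hold are not reported here. The members and the 15 gene lists were chosen with earlier results of these data known. The ratio script was tested on simulated data. Python 3.11.15, numpy 2.4.6, scipy 1.17.1, pandas 2.3.3 and matplotlib 3.10.9 were used, and 16 alternative settings were tried.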

Additional observations from a re-analysis of the deposited data

Results flagged for a closer look

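The pericyte list had a median log2 ratio of Ifngr1iProx1 over Ifngr1WT of -0.70 in mural-like barcodes and 0.55 in blood endothelial barcodes. The blood endothelial value rested on barcodes that also held stromal UMIs, foremost 1 of 326715 UMIs in Ifngr1iProx1, and was 0.01 with 7 measured genes once barcodes with at least 5 stromal UMIs were left out. The interferon-gamma response list had medians of -0.63 in mural-like and 0.86 in blood endothelial barcodes, and in blood endothelium 0.96 without the same barcodes. Neither difference was tested.

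Stromal signal was also present outside the members. At least 5 stromal panel UMIs were found in 7 barcodes of another panel in Ifngr1iProx1 and 4 in Ifngr1WT, and in 2 and 4 barcodes that failed a filter.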

How the results depend on the processing

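Of the values compared, 154 main ones kept direction and size under the alternatives, 22 moved and 2 reversed, and among single genes 88 kept them, 27 moved and 5 reversed; alternatives that leave out barcodes by Dcn, Pecam1 and Cdh5, Malat1, depth or stromal UMIs were chosen after seeing the data. For mural-like over collagen-led, the 589 genes higher became 1040 with the mean over barcodes, 1123 at a minimum of 20 UMIs and 302 at 100, and the 328 lower became 654 at 20 and 161 at 100. Requiring a 3-times split gave list medians of 3.53 (pericyte), 2.65 (contractile) and -2.26 (fibroblast); the mean over barcodes gave 1.09 (contractile) and -1.50 (fibroblast); leaving out barcodes with at least 20 Dcn UMIs gave 0.78, 1.03 and -0.25. Where the stromal sum had to be 3 times any other, the endothelial marker median of stromal over other barcodes was -4.95 in place of -3.18. For genotype over all stromal barcodes, the 201 genes higher became 511 with the mean over barcodes, 564 at 20 UMIs and 92 at 100; the 184 lower became 315, 436 and 81, 118 within collagen-led barcodes, and 297 with the mean over barcodes of at least 10000 UMIs. Within collagen-led barcodes the genotype medians reversed for the pericyte (0.29, against -0.54 over all) and contractile lists (-0.065, against 0.82), as did Rgs5 (0.32), Kcnj8 (0.43), Col1a1 (-0.21), Ccn2 (-0.47) and B2m (0.43); fewer barcodes entered, and the cause was not tested. No paired analysis was possible because each genotype is a single library. Depth limits Ifngr1 and other genes with few UMIs.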
